A study of Homo sapiens with 6 samples.

Results

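Oxidative phosphorylation is carried out by 5 complexes of the inner mitochondrial membrane, and the genes for their subunits are described here in KGN cells after knockdown of OGT. Members were chosen by gene symbol alone: every gene of the expression table whose current symbol starts with NDUFA, NDUFB, NDUFC, NDUFS, NDUFV, UQCR, COX4 to COX8, ATP5F1, ATP5M or ATP5P, the genes SDHA, SDHB, SDHC, SDHD and CYC1, and the 13 protein genes of the mitochondrial genome. This gave 111 genes of the 20036 in the table, of which 98 are nuclear. KGN is an established human cell line from an ovarian granulosa cell tumour, labelled wild type, and it was grown in DMEM/F12 medium with serum. Cells were transfected with a negative control small interfering RNA (siNC) or with either of a pair directed at OGT (siOGT1 and siOGT2), using Lipofectamine 3000, and RNA was taken 48 hours later. Each group had 2 libraries, 6 in all. The 3 groups share the line, the medium and the transfection, and the design has no untransfected cells. The study asked how the knockdown of OGT, which encodes the enzyme that attaches N-acetylglucosamine to nuclear and cytosolic proteins, changes gene expression in these cells.

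Electrons from NADH enter the chain at complex I, and electrons from succinate enter at complex II. They pass through ubiquinone to complex III and through cytochrome c to complex IV, which reduces oxygen. Complexes I, III and IV pump protons, and complex V, the ATP synthase, uses the gradient to make ATP. Complex II is encoded by nuclear genes alone, whereas the other complexes join nuclear subunits, imported from the cytosol, with subunits made inside the organelle from mitochondrial DNA. The mitochondrial genes are transcribed as long RNAs that are then cut into single messages. In granulosa cells mitochondria are also the site of the first step of steroid synthesis.

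The depth of the 6 libraries, worked out from the values, ran from 16756649 to 21416489 reads. Levels are FPKM, that is fragments scaled to the length of the gene and to the size of the library. Comparisons between genes depend on the length used for each gene, and comparisons between libraries depend on the scaling. Differences are on the log2(FPKM + 1) scale and come from limma fitted over all genes with a mean of at least 1 FPKM, and "called" means a two-sided Benjamini-Hochberg adjusted p under 0.05 over those 10547 genes. Nothing in the labels says that the libraries of a group came from separate cultures, so p-values measure the spread between these libraries, which may be technical. OGT itself stood at 22.4 and 23.4 FPKM in siNC, at 13.8 and 12.9 in siOGT1 and at 14.3 and 14.7 in siOGT2. It fell by 0.74 with siOGT1 (adjusted p = 9.3e-06, limma) and by 0.63 with siOGT2 (adjusted p = 8.88e-06). Of 11 granulosa markers, 5 reached 1 FPKM: NR5A1 (19.3), INHBA (6.99), FOXL2 (5.70), GATA4 (2.45) and STAR (1.75), while the FSH receptor gene FSHR was listed at 0 and CYP19A1, AMHR2, INHA, CYP11A1 and WT1 were below 1. The summed granulosa markers were at 34.7 to 35.8 FPKM with siNC, 37.3 to 39.4 with siOGT1 and 36.0 to 37.1 with siOGT2. Markers of leukocytes, endothelium, muscle and testis summed to at most 0.107, 0.659, 0.515 and 0.014 FPKM in any library, and LYZ, MYL2 and PRM1 were at 0.

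Of the 98 nuclear members, 37 encode complex I subunits, 8 complex I assembly factors (NDUFAF1 to NDUFAF8), 4 complex II, 10 complex III, 19 complex IV and 18 complex V, and 2 are readthrough genes that join a member to its neighbour. NDUFA4 and NDUFA4L2 were counted with complex IV, where the NDUFA4 protein is found. Mitochondrially encoded genes were far above the nuclear ones. Their median was 1012 FPKM, against 7.87 for the nuclear members. MT-CO1, the catalytic subunit of complex IV, was highest at a mean of 4291 FPKM, followed by its partner MT-CO2, which takes electrons from cytochrome c, at 3952. The lowest was MT-ATP8, a small membrane subunit of the ATP synthase, at 48.6.

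Among nuclear members ATP5F1B, the catalytic beta subunit of the ATP synthase, was highest at 269.7 FPKM. The next were NDUFS5, an accessory subunit of complex I, at 137, SDHC, a membrane anchor of complex II, at 67.2, NDUFA1 at 66.6, and UQCRH, the hinge protein of complex III, at 62.2. By complex the nuclear medians were 31.9 FPKM for complex II, 17.3 for complex III, 10.8 for complex V, 7.20 for complex I and 6.40 for complex IV. Levels also differed within a complex. In the F1 head of the ATP synthase, where the alpha and beta subunits are present in equal numbers, ATP5F1B stood at 269.7 FPKM and its partner ATP5F1A at 27.0. ATP5F1B had 9555 to 12404 reads per library over a recovered length of 2238 bases. ATP5F1A had 5039 to 6475 reads over 10908 bases, so the reads lay much closer together than the FPKM values. In complex II SDHA, the flavoprotein that oxidises succinate, stood at 0.446 FPKM, with 55 to 99 reads per library, beside SDHC at 67.2, SDHB at 36.3 and SDHD at 27.6.

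**Figure D1:**
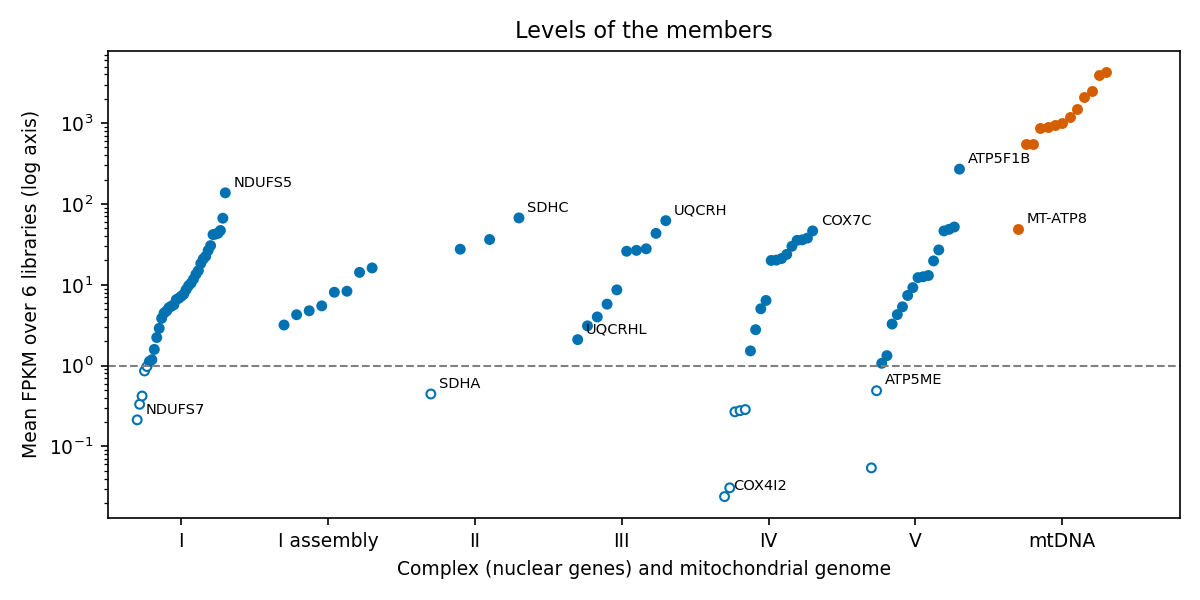
Mean FPKM of each member over 6 libraries on a log axis, by complex for nuclear genes (blue) and for the mitochondrial genome (orange). Open points lie under the dashed line at 1 FPKM and were not tested, and MT-ATP8 at 48.6 FPKM lies apart from the other mitochondrial genes. COX6A2, listed at 0, and both readthrough genes are not drawn.

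A minimum of 1 FPKM left 82 nuclear and 13 mitochondrial members for testing. The 16 below it were NDUFA9, NDUFA11, NDUFB8, NDUFS7 and NDUFV2 of complex I, SDHA, COX4I2, COX6A2, COX6B2, COX7A1, COX8C and NDUFA4L2 of complex IV, ATP5ME and ATP5MGL of complex V, and both readthrough genes. COX6A2 and NDUFC2-KCTD14 were listed at 0 in all libraries. NDUFS7 and NDUFV2 encode iron-sulfur subunits of complex I, and they stood at 0.213 and 0.860 FPKM. Members whose exons overlap other genes had lower values. In the GENCODE 29 annotation 34 nuclear members, readthrough genes aside, had at least 10% of their exon bases inside another gene, with a median of 3.48 FPKM and 8 below the minimum. The other 62 had a median of 14.6 FPKM, with 6 below it. The sources used here do not say how reads in shared exons were counted, and SDHA, with 0% overlap, has near-identical copies elsewhere in the genome. Low levels of these members were therefore not read as low mRNA, and the part of the counting in them was not tested.

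Several subunits exist as a pair of genes, one used widely and one in particular tissues. In complex IV the widely expressed forms were COX4I1 (20.2 FPKM), COX6A1 (2.79), COX6B1 (35.4), COX7A2 (36.0), COX7B (20.0) and COX8A (5.05). Their counterparts were COX4I2 (0.024), which is known from lung, COX6A2 (0) and COX7A1 (0.287) from heart and skeletal muscle, and COX6B2 (0.0308), COX7B2 (1.52) and COX8C (0.268) from testis. COX7B2 was the only one of these 6 counterparts above the minimum, and it rested on 16 to 34 reads per library. It stood at 2.07 and 1.70 FPKM in siNC, 1.13 and 1.37 in siOGT1 and 1.69 and 1.17 in siOGT2. It was not called (-0.36, adjusted p = 0.0535 with siOGT1, and -0.25, adjusted p = 0.102 with siOGT2, limma). COX7A2L, which helps join complexes III and IV into a supercomplex, stood at 21.1 FPKM. The 3 genes for the c ring of the ATP synthase, whose mature proteins are the same, stood closer together: ATP5MC3 at 19.7 FPKM, ATP5MC2 at 13.03 and ATP5MC1 at 12.3.

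UQCRH has a near copy without introns, UQCRHL, at 2.10 FPKM against 62.2. Their coding sequences, the longest open reading frames of the GENCODE 29 transcripts, are both 276 bases long and differ at 4, an identity of 98.6%. All 4 differences lie in the stretch from base 115 to base 234, which sets which reads of the coding sequence can be told apart. It is shown here 5′ to 3′ with the differing bases in capitals.
UQCRH: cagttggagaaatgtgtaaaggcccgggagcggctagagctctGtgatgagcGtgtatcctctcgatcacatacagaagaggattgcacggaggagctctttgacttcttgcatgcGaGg
UQCRHL: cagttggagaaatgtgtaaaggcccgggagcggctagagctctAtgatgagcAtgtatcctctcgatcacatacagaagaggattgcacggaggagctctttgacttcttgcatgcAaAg
Reads of the coding sequence outside these positions could belong to either gene, so their split between both genes is uncertain. The exons are longer, at 1408 bases for UQCRH and 2180 for UQCRHL, and their other bases were not compared.

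Promoters of nuclear respiratory genes are known for sites of NRF1, of the ETS factor GABP (also called NRF2, a name shared with another factor) and of YY1. The letters GCGCANGCG for NRF1, CCGGAAG for ETS factors and AANATGGCG for YY1 were searched on both strands from 250 bases before to 50 bases after the gene start in the RefSeq table (GRCh38.p14), which held 77 of the 98 nuclear members. At least 1 NRF1 match was present in 31.2% of the 77, an ETS match in 27.3% and a YY1 match in 20.8%. Over all 27305 promoters of the table these shares were 8.05%, 10.7% and 3.37%, and over the 8693 promoters of tested genes 15.8%, 20.9% and 7.64%. At least 1 of the 3 was present in 58.4% of member promoters and 37.7% of tested-gene promoters. A match describes letters only. The promoters shown are those of members that the results turn on: NDUFS6, the nuclear member with the largest rise with siOGT2, NDUFS1, which fell with siOGT1, and UQCRH, COX7C and ATP5PB, which rose with siOGT2 under every setting tried. Each runs 5′ to 3′ on the strand of the gene, from 170 bases before to 30 after its start, with matches in capitals.
NDUFS6 (chr5:1801237-1801436, plus strand): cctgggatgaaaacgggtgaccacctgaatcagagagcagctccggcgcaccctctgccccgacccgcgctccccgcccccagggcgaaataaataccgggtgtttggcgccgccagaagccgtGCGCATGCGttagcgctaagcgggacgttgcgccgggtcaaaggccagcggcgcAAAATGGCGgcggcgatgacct
NDUFS1 (chr2:206159415-206159614, minus strand): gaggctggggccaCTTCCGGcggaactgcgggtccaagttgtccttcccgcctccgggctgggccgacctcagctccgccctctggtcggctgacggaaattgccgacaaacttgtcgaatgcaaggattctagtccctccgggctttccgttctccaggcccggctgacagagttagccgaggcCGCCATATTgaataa
UQCRH (chr1:46303528-46303727, plus strand): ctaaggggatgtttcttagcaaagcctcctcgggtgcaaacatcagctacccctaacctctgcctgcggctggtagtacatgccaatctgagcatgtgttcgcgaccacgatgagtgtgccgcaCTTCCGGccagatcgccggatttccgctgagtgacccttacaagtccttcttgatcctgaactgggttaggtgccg
COX7C (chr5:86617771-86617970, plus strand): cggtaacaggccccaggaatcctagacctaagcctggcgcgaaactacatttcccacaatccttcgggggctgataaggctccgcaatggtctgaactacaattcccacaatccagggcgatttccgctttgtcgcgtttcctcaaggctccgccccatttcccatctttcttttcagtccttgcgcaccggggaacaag
ATP5PB (chr1:111449294-111449493, plus strand): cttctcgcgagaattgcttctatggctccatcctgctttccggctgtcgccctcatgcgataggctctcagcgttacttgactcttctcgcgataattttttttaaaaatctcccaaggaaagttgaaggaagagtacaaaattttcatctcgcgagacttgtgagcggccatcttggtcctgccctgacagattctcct
NDUFS6, which rose, and NDUFS1, which fell with siOGT1, both hold a YY1 match just after the start. The windows of COX7C and ATP5PB hold none of the 3 motifs, although both genes rose. Among tested members in the table, an NRF1 match was present in 33.3% of the 21 called higher with siOGT2 and in 24.4% of the 45 not called. For ETS the shares were 38.1% and 26.7%, and for YY1 28.6% and 15.6%. These are descriptions of few promoters and were not tested.

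The messages of the mitochondrial genome rose with siOGT2. Of the 13, 11 were called higher and none lower, with a median difference from siNC of 0.25, where 22.1% of all tested genes were called higher and 13.4% lower and the median over all tested genes was 0.045. Of all genes called, 62.3% were higher with siOGT2 and 54.0% with siOGT1, and with trimmed-mean scaling these shares were 43.9% and 34.5%, while the medians of the mitochondrial genes stayed positive at 0.20 and 0.045. At an unadjusted p under 0.05 the lower count was also 0, as it was with voom on recovered reads. With siOGT1 the same genes had a median of 0.08, and MT-ND3 was the only member called higher, where 9.51% of all tested genes were called higher and 8.1% lower and their median was 0.032. Over all tested genes, 3360 of 10547 passed an unadjusted p under 0.05 in either direction with siOGT1, and voom called 1515 of 10546 higher. No mitochondrial gene was called lower with siOGT1 by limma (0 at an unadjusted p under 0.05, 0 with voom). Of these genes 5 were higher at an unadjusted p under 0.05 and voom called 8 higher. Without siOGT1 replicate 1 the siOGT1 count was 3, and without any 1 of the other 5 libraries it was 0. The siOGT1 and siOGT2 comparisons share the siNC libraries, so they are not independent of each other. In bulk RNA a change in the number of transcripts per cell and a change in the share of cells that carry them cannot be told apart.

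MT-CYB, the only complex III subunit of the mitochondrial genome and the site where ubiquinol is oxidised, stood at 1349 and 1347 FPKM in siNC, 1417 and 1465 in siOGT1 and 1647 and 1655 in siOGT2. Both siOGT2 libraries lay above every other library, and both siOGT1 libraries lay above both siNC libraries. The rise with siOGT2 was 0.29 with an SE of 0.03 (adjusted p = 0.000171, limma), and the difference of 0.10 with siOGT1 was not called (adjusted p = 0.0669). MT-ND5, one of the proton-pumping subunits of complex I, stood at 944.4 and 944.3 FPKM in siNC, 962 and 958 in siOGT1 and 1133 and 1129 in siOGT2. The siOGT1 libraries lay close to siNC, whereas siOGT2 was at 120% of it (0.26 with an SE of 0.03, adjusted p = 0.00019).

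In complex I of the mitochondrial genome 6 of 7 genes rose with siOGT2. MT-ND4L had the largest value, 0.41, but its siOGT2 libraries were far apart at 585 and 687 FPKM, beside 497 and 457 with siNC and 483 and 576 with siOGT1. Without siNC replicate 2 or siOGT2 replicate 2 MT-ND4L was no longer called, with adjusted p between 1.95e-07 and 0.0634 over 17 alternative settings. MT-ND3 stood at 778 and 802 FPKM in siNC, 854 and 969.6 in siOGT1 and 976 and 1037 in siOGT2, which gave 0.20 with siOGT1 (adjusted p = 0.0344) and 0.35 with siOGT2 (adjusted p = 0.00159). The siOGT1 call of MT-ND3 ended when any library other than siOGT1 replicate 1 was left out, and the adjusted p over 17 settings ran from 0.000113 to 0.191. MT-ND6, the only protein gene on the opposite strand, stood at 496 and 492 FPKM, then 512 and 569, then 606 and 629, a rise of 0.32 with siOGT2 (adjusted p = 0.000944). The sources used here do not say whether the libraries kept strand, so MT-ND6 reads cannot be told apart from RNA of the other strand at that place. The exception was MT-ND1, with 946 and 941 FPKM in siNC, 925 and 936 in siOGT1 and 982 and 997 in siOGT2. Its siOGT2 libraries lay above all others by little, and the difference of 0.07 (95% interval 0.0028 to 0.13) was not called (adjusted p = 0.096).

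All 3 complex IV genes of the mitochondrial genome rose with siOGT2. MT-CO1 went from 4050 and 4083 FPKM to 4601 and 4582 (0.18, adjusted p = 0.00385), MT-CO2 from 3776 and 3593 to 4300.1 and 4551 (0.26, adjusted p = 0.00138), and MT-CO3 from 1978 and 1962 to 2323 and 2364 (0.25, adjusted p = 0.000423). The call of MT-CO1 ended without siOGT2 replicate 1 or siOGT2 replicate 2, and those of MT-CO2 and MT-CO3 held without each library. With siOGT1 they stood at 4243 and 4188, 3739.8 and 3750.0, and 2074 and 2100 FPKM, and none was called, while voom called 2 of these 3 higher. In complex V MT-ATP6, which forms the proton channel, stood at 1116 and 1087 FPKM in siNC, 1139 and 1192 in siOGT1 and 1281 and 1317 in siOGT2 (0.24, adjusted p = 0.00102). MT-ATP8 lies on the same message as MT-ATP6, and the genes share 46 bases (chrM:8527-8572), 22.2% of the length of MT-ATP8. Its level was nevertheless 48.6 FPKM against 1189, on 136 to 284 reads per library, and its libraries scattered from 35.55 to 64.06 FPKM within and across groups. Its difference of 0.24 with siOGT2 had a 95% interval from -0.36 to 0.84 and was not called (adjusted p = 0.52, limma). The shared bases, which begin with the start codon of MT-ATP6, are shown because reads over them belong to both genes.
MT-ATP8 and MT-ATP6: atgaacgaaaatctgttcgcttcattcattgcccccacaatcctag

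**Figure D2:**
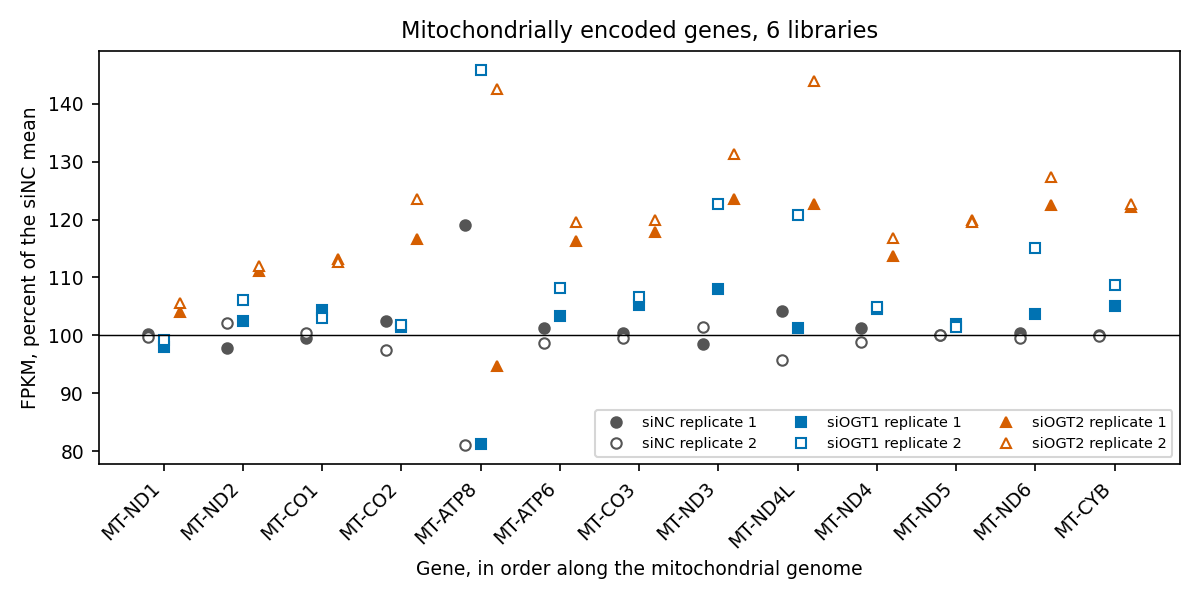
FPKM of each mitochondrial gene in each library as a percent of its siNC mean, in genome order, with filled symbols for replicate 1 and open ones for replicate 2. Both siOGT2 libraries (triangles) lie above both siNC libraries (circles) in 12 of 13 genes, the exception being MT-ATP8, whose libraries scatter most. The share of all tested genes that lie apart in this way was not counted, so this count has no background here. Among tested nuclear members 57 of 82 lie apart in the same direction, and 29 of them were called higher. Being called is thus another measure, which 22.1% of all tested genes passed in the higher direction with siOGT2.

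Mitochondrial messages made up 2.01% and 1.99% of reads in siNC, 2.07% and 2.09% in siOGT1 and 2.31% and 2.34% in siOGT2. The nuclear members made up 0.456% and 0.448%, then 0.459% and 0.475%, then 0.496% and 0.503%. The ratio of summed FPKM, mitochondrial over nuclear tested members, was 10.6 and 10.9 in siNC, 11 and 10.8 in siOGT1 and 11.1 and 11.4 in siOGT2. Both shares were highest in the siOGT2 libraries, and the ratio between the genomes moved by little more than the spread between libraries of 1 group. A higher share of mitochondrial reads is also known as a sign of stressed cells or of RNA quality, and its part in these values was not tested.

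Among nuclear members 29 of 82 were called higher with siOGT2 (35.4%) and none lower, with a median of 0.13. At an unadjusted p under 0.05, 43 were higher and 1 lower, and voom called 36 higher and 0 lower. With siOGT1 16 were called higher (19.5%) and 2 lower, with a median of 0.09. The shares called among all tested genes, 22.1% higher and 13.4% lower with siOGT2 and 9.51% and 8.1% with siOGT1, are the background to these counts. The counts by complex and by role below are to be read against the same shares. At an unadjusted p under 0.05, 4877 of all 10547 tested genes passed in either direction with siOGT2. Voom called 2676 of 10546 genes higher and 1548 lower there. The differences were small. The largest rise of a nuclear member that passed was 0.42 with siOGT2, and the largest with siOGT1 was 0.37.

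The count of nuclear members called depended on single libraries. So did the count over all tested genes, which fell in both comparisons with siNC whenever a library of the groups compared was left out. Without siNC replicate 2 no nuclear member was called higher with siOGT1 and 9 were with siOGT2, and without siOGT1 replicate 2 the siOGT1 count was 2. Without siNC replicate 1 it was 9, and without siOGT2 replicate 2 the siOGT2 count was 13. The medians stayed positive, between 0.063 and 0.12 with siOGT1 and between 0.10 and 0.15 with siOGT2. Over all tested genes the medians of the same fits lay between 0.025 and 0.037 with siOGT1 and between 0.042 and 0.047 with siOGT2. Nuclear members moved together between libraries of 1 group: 57 of 82 were lower in siNC replicate 2 than in replicate 1 (median -0.06), and 63 were higher in siOGT1 replicate 2 than in replicate 1 (median 0.06), where the medians over all tested genes were 0.004 and 0.008. Short genes as a class did so too. The nuclear members had a median length of 2511.5 bases, against 5505 for all tested genes, and the 1331 tested genes no longer than that had medians of -0.025 and 0.04 between the same libraries. The part of gene length in the calls was not tested.

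**Figure D3:**
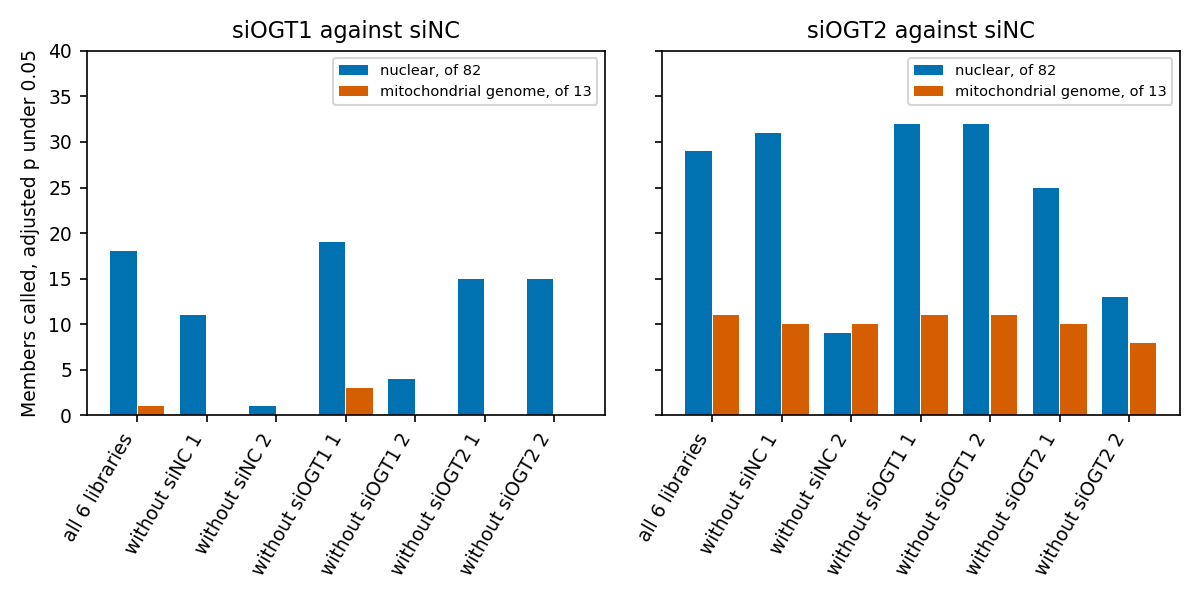
Bars give the number of members called in either direction (adjusted p under 0.05, limma) with all 6 libraries and with each library left out, for nuclear (blue) and mitochondrial (orange) members. Calls over all tested genes, which are not drawn, also fall when a library of the groups compared is left out. Nuclear calls fall from 18 to 1 with siOGT1 and from 29 to 9 with siOGT2 without siNC replicate 2, whereas mitochondrial calls with siOGT2 stay between 8 and 11.

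The calls that held with each library left out in turn, and under the other 11 settings, were 9 with siOGT2, among them NDUFS5, NDUFS6 and NDUFB3 of complex I, SDHC, UQCRH, COX7C, and ATP5F1B and ATP5PB of complex V. With siOGT1 the fall of ATP5F1B was the only nuclear call that did. Of the 11 mitochondrial calls with siOGT2, 8 held without each library and 4 under all 17 settings (MT-ATP6, MT-ND3, MT-ND5 and MT-ND6).

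In complex I 11 of 32 tested nuclear subunits rose with siOGT2 and none fell (median 0.12), and 7 rose and 1 fell with siOGT1 (median 0.10). No subunit was lower with siOGT2 at an unadjusted p under 0.05 or with voom. NDUFS6, which holds a zinc site near the iron-sulfur chain, stood at 26.9 and 24.7 FPKM in siNC, 29.8 and 32.4 in siOGT1 and 35.1 and 34.2 in siOGT2. The groups did not overlap, and siOGT2 was at 135% of siNC (0.42 with an SE of 0.05, adjusted p = 0.000347) and siOGT1 at 121% (0.26, adjusted p = 0.00744). The siOGT1 value was not called without siNC replicate 2, with adjusted p from 0.00407 to 0.0653 over the settings.

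NDUFB3, an accessory subunit of the membrane arm, stood at 21.2 and 19.8 FPKM in siNC, 20.7 and 21.8 in siOGT1 and 26.6 and 24.8 in siOGT2. It rose with siOGT2 (0.31, adjusted p = 0.00131), while the siNC and siOGT1 libraries overlapped (0.05, 95% interval -0.06 to 0.16). NDUFS5 rose with siOGT2 from 132 and 121 FPKM to 147 and 152 (0.24, adjusted p = 0.00336).

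NDUFS1, the largest subunit of complex I and the carrier of several of its iron-sulfur centres, was the only complex I member called lower. It stood at 13.4 and 14.3 FPKM in siNC, 11.6 and 11.4 in siOGT1 and 14.5 and 15.7 in siOGT2. With siOGT1 it was at 83.0% of siNC (-0.25 with an SE of 0.05, adjusted p = 0.00719), and the call was lost without siNC replicate 2 (adjusted p from 1.89e-06 to 0.0657 over the settings). With siOGT2 it was above siNC in both libraries but not called (0.12, adjusted p = 0.0898). Of the exon bases of NDUFS1 11.7% lie in other genes, EEF1B2 among them.

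By role, the core subunits NDUFS3, NDUFS8 and NDUFV1 of complex I rose with siOGT2, and so did 7 of 27 tested accessory subunits. The accessory share was near the 22.1% of all tested genes called higher with siOGT2. The accessory subunits called were NDUFA1, NDUFA8, NDUFA12, NDUFB3, NDUFB4, NDUFS5 and NDUFS6. With siOGT1, where 9.51% of all tested genes were called higher, the core subunit NDUFS3 rose, and so did 5 accessory ones (NDUFA5, NDUFA12, NDUFB1, NDUFB6 and NDUFS6). Others were flat: NDUFS4, at 42.2 and 43.9 FPKM with siNC, stood at 41.9 and 44.3 with siOGT1 and 45.2 and 42.4 with siOGT2, with intervals of -0.09 to 0.10 and -0.07 to 0.12. Of the 8 assembly factors NDUFAF2 was called higher with siOGT1 and NDUFAF7 with siOGT2. That is 12.5% with each siRNA, near the 9.51% of all tested genes with siOGT1 and below the 22.1% with siOGT2. No assembly factor was called lower, with 1 lower with siOGT1 (NDUFAF4, which trimmed-mean scaling called lower at -0.15) and 0 with siOGT2 at an unadjusted p under 0.05 and 0 with voom for either siRNA.

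In complex II SDHC and SDHB rose with siOGT2 and SDHD did not pass. SDHC stood at 64.9 and 63.1 FPKM in siNC, 58.4 and 63.1 in siOGT1 and 74.8 and 79.1 in siOGT2. Its siOGT2 libraries lay above all others, at 120% of siNC (0.26, adjusted p = 0.00181). SDHB, the iron-sulfur subunit, went from 34.95 and 32.99 FPKM with siNC to 36.6 and 37.3 with siOGT1 and 38.6 and 37.3 with siOGT2 (0.16 with siOGT2, adjusted p = 0.0113, from 0.0062 to 0.0918 over the settings). The SDHB call ended without siNC replicate 2 or siOGT2 replicate 1. No complex II gene was called with siOGT1 by limma, where 1 was higher at an unadjusted p under 0.05 and voom called 1 higher.

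In complex III 4 of 10 tested nuclear subunits rose with siOGT2 (UQCRH, UQCRC1, CYC1 and UQCRB) and 3 with siOGT1 (UQCRH, UQCRFS1 and UQCRB). None fell with either siRNA, also at an unadjusted p under 0.05 and with voom. UQCRH stood at 57.5 and 57.9 FPKM in siNC, 60.8 and 63.4 in siOGT1 and 66.4 and 67.1 in siOGT2. Its groups did not overlap, with 0.21 for siOGT2 (adjusted p = 0.00121) and 0.10 for siOGT1 (adjusted p = 0.0488), a call that ended in 12 of 17 settings (adjusted p from 0.0386 to 0.213). CYC1, which encodes cytochrome c1, the subunit that hands electrons to cytochrome c, stood at 26.8 and 26.8 FPKM in siNC, 27.8 and 26.5 in siOGT1 and 29.5 and 29.9 in siOGT2 (0.14, adjusted p = 0.0121, from 0.00896 to 0.0693 over the settings). That call ended without siNC replicate 1, siNC replicate 2 or siOGT2 replicate 2. UQCRFS1, the Rieske iron-sulfur protein, went from 24.4 and 24.8 FPKM to 26.2 and 28.6 with siOGT1 (0.15, adjusted p = 0.0419, a call that held only without siOGT1 replicate 1 when 1 library was left out) and 26.5 and 25.6 with siOGT2.

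In complex IV 5 of 13 tested nuclear subunits rose with siOGT2 (COX7C, COX5B, COX6B1, COX6C and NDUFA4) and 3 with siOGT1 (COX7C, COX5A and COX8A). None fell, while at an unadjusted p under 0.05 1 was lower with each siRNA, voom called 0 lower and trimmed-mean scaling called COX7B2 lower with siOGT1 (-0.38). COX7C, a small membrane subunit, stood at 42.6 and 42.5 FPKM in siNC, 47.4 and 45.9 in siOGT1 and 49.2 and 51.1 in siOGT2. The groups did not overlap, with 0.23 for siOGT2 (adjusted p = 0.000902) and 0.13 for siOGT1 (adjusted p = 0.0271), the latter lost without siNC replicate 1, siNC replicate 2 or siOGT1 replicate 1 (adjusted p from 0.0213 to 0.123 over the settings). COX5B, a subunit on the matrix side, went from 27.7 and 26.6 FPKM to 28.2 and 31.9 with siOGT1 and 33.2 and 31.9 with siOGT2 (0.25 with siOGT2, adjusted p = 0.00634, and 0.0525 without siNC replicate 2, in a range from 0.00111). COX8A, with 34.5% of its exon bases in other genes, had the largest difference of a tested member with siOGT1, 0.37 (adjusted p = 0.0429). It had 36 reads in its lowest library, and its siNC libraries stood at 5.02 and 3.62 FPKM. That call ended in 11 of 17 settings (adjusted p from 0.0043 to 0.204). COX4I1, the subunit that binds ATP as a regulator, stood at 20.6 and 19.4 FPKM in siNC, 20.0 and 19.9 in siOGT1 and 20.5 and 21.0 in siOGT2, and was not called (intervals -0.09 to 0.08 and -0.04 to 0.14).

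In complex V 6 of 16 tested nuclear subunits rose with siOGT2 and none fell (median 0.16, 0 lower at an unadjusted p under 0.05 and 0 with voom). They were ATP5F1B of the F1 head, ATP5PB and ATP5PF of the peripheral stalk, ATP5MC1 and ATP5MC2 of the c ring, and ATP5MK, a small membrane subunit. ATP5PB stood at 42.6 and 42.7 FPKM in siNC, 45.8 and 48.0 in siOGT1 and 49.9 and 49.5 in siOGT2, with groups that did not overlap (0.21 with siOGT2, adjusted p = 0.00125, and 0.13 with siOGT1, adjusted p = 0.0228). The siOGT1 call of ATP5PB ended without siNC replicate 1, siNC replicate 2 or siOGT1 replicate 2 (adjusted p from 0.00725 to 0.118 over the settings). With siOGT1 2 members rose, ATP5PB and ATP5MC3, and ATP5F1B fell. Of the c ring genes, ATP5MC3 stood at 19.0 and 18.4 FPKM in siNC, 20.2 and 21.6 in siOGT1 and 19.1 and 20.2 in siOGT2. ATP5MC1 stood at 12.4 and 11.2, 10.6 and 11.7, and 12.9 and 14.8, and ATP5MC2 at 12.6 and 11.9, 11.5 and 13.4, and 14.996 and 13.8.

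ATP5F1B (ENSG00000110955, chr12:56638175-56646068, minus strand, GRCh38) was the only member called in opposite directions. It stood at 275 and 273 FPKM in siNC, 232 and 236 in siOGT1 and 303 and 299.6 in siOGT2. The means were 274 ± 1.35, 234 ± 2.81 and 301 ± 2.12 (SD, n = 2), so the groups lay apart by far more than the libraries within them. With siOGT1 it was at 85.3% of siNC (-0.23 with an SE of 0.03, adjusted p = 0.000526) and with siOGT2 at 110% (0.14, adjusted p = 0.0054). These calls held in all 17 alternative settings, on 9555 to 12404 reads per library. The other F1 genes did not share the fall with siOGT1: ATP5F1A stood at 25.4 and 26.6, 27.0 and 27.7, and 27.9 and 27.6 FPKM, and ATP5F1C at 47.4 and 46.2, 48.3 and 49.1, and 48.8 and 51.8, none of them called.

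**Figure D4:**
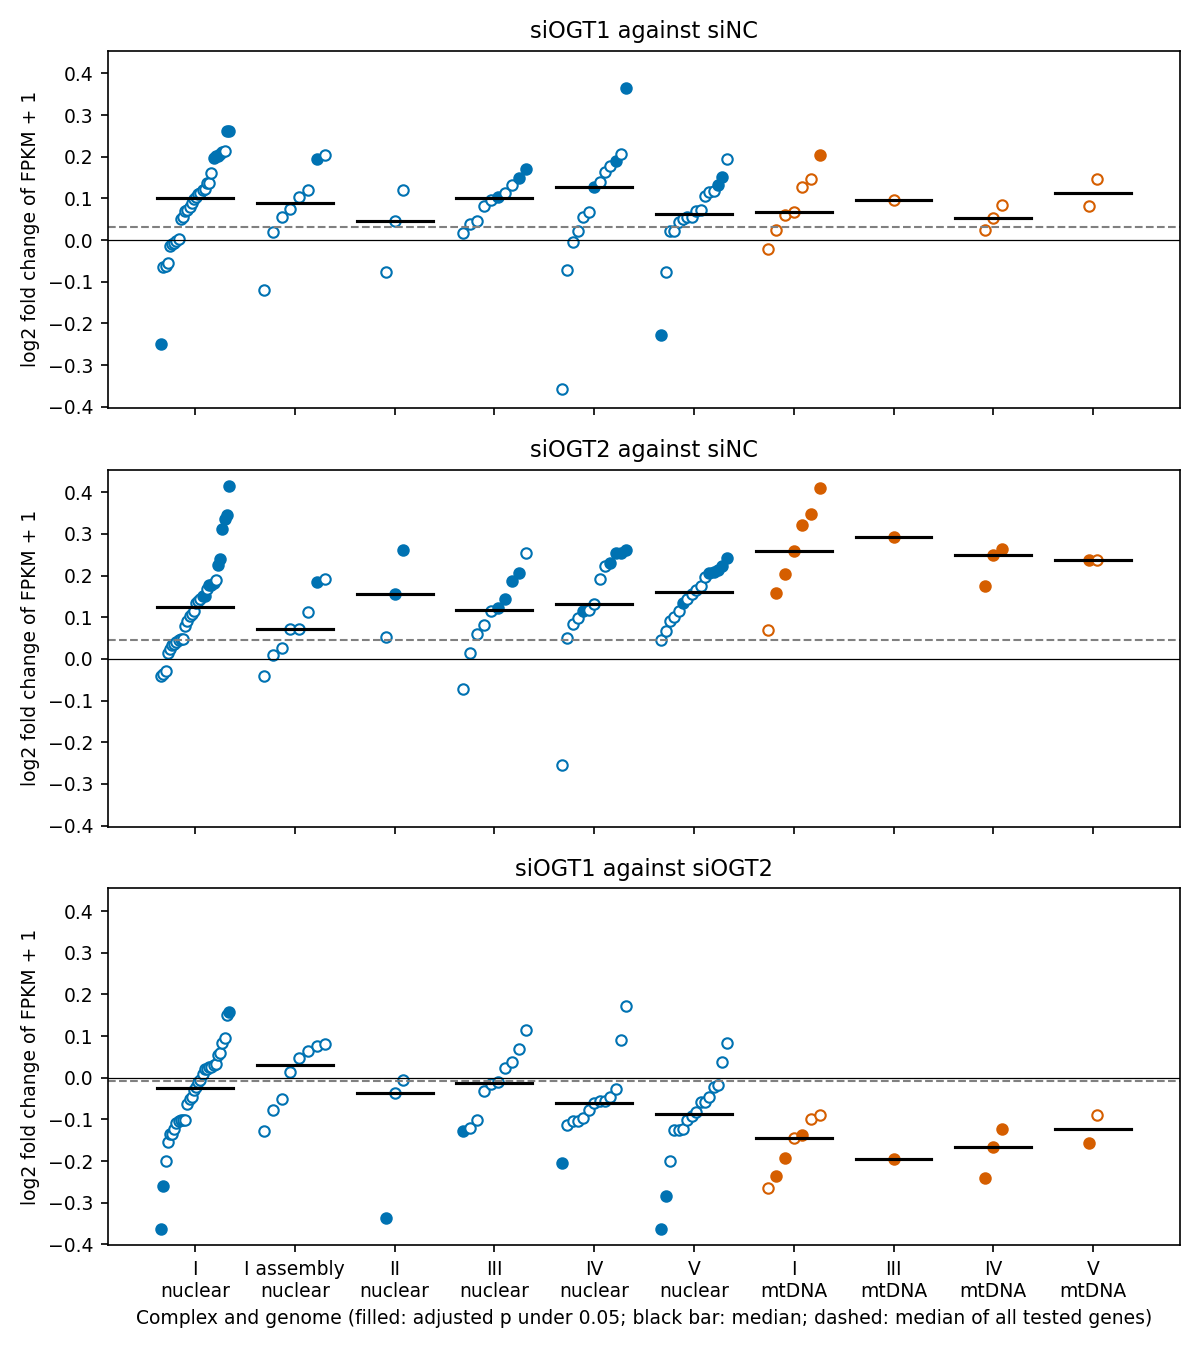
Each point is a tested member's log2 fold change of FPKM + 1, by complex and genome, with members called (adjusted p under 0.05, limma) filled, the median of each group as a black bar and the median of all tested genes dashed. With siOGT2 11 of 13 mitochondrial and 29 of 82 nuclear members are filled above 0, and with siOGT1 ATP5F1B and NDUFS1 are the filled points below it.

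The siRNAs were also compared with each other, in the same fit over all 6 libraries, so the siNC libraries entered the estimate of the spread. Against siOGT2, 8 of 13 mitochondrial genes were lower with siOGT1 and none higher (median -0.16), and 7 nuclear members were lower and 1 higher (median -0.05), where 8.24% of all tested genes were lower and 8.35% higher. At an unadjusted p under 0.05, 12 mitochondrial genes were lower and 0 higher, as with voom. Over all tested genes 3229 of 10547 passed that threshold in either direction, and voom called 1144 of 10546 lower. The count of mitochondrial genes fell to 1 without siOGT2 replicate 2 and to 4 without siOGT2 replicate 1. Of the nuclear members 8.54% were lower, near the share over all tested genes, and 1.22% were higher, which is below it. With only the 4 siOGT libraries in the fit, 7 nuclear members were lower and 0 higher, and 7 mitochondrial genes were lower. CYC1, MT-CO1 and NDUFA5 were not called there. With each library left out in turn, the nuclear count in both directions was 13 without siOGT1 replicate 2 and 4 without siOGT2 replicate 2. ATP5F1B and NDUFS1 had the largest differences, each -0.36 (adjusted p = 4.53e-05 and 0.00102), followed by SDHC at -0.34 (adjusted p = 0.00086), ATP5MC1 at -0.28 (adjusted p = 0.0257, from 0.00329 to 0.175 over the settings), NDUFB3 at -0.26 (adjusted p = 0.00626) and COX7A2 at -0.20 (adjusted p = 0.0231, from 0.00425 to 0.159). ATP5MC1 and COX7A2 were not called without siOGT1 replicate 1 or siOGT2 replicate 2. The other 4 named here and MT-ND5 (-0.24, adjusted p = 0.000605) held under all 17 settings. NDUFS6 and COX7C were lower with siOGT1 than with siOGT2 in every library, by 0.15 and 0.10, without being called (adjusted p = 0.069 and 0.0663).

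**Figure D5:**
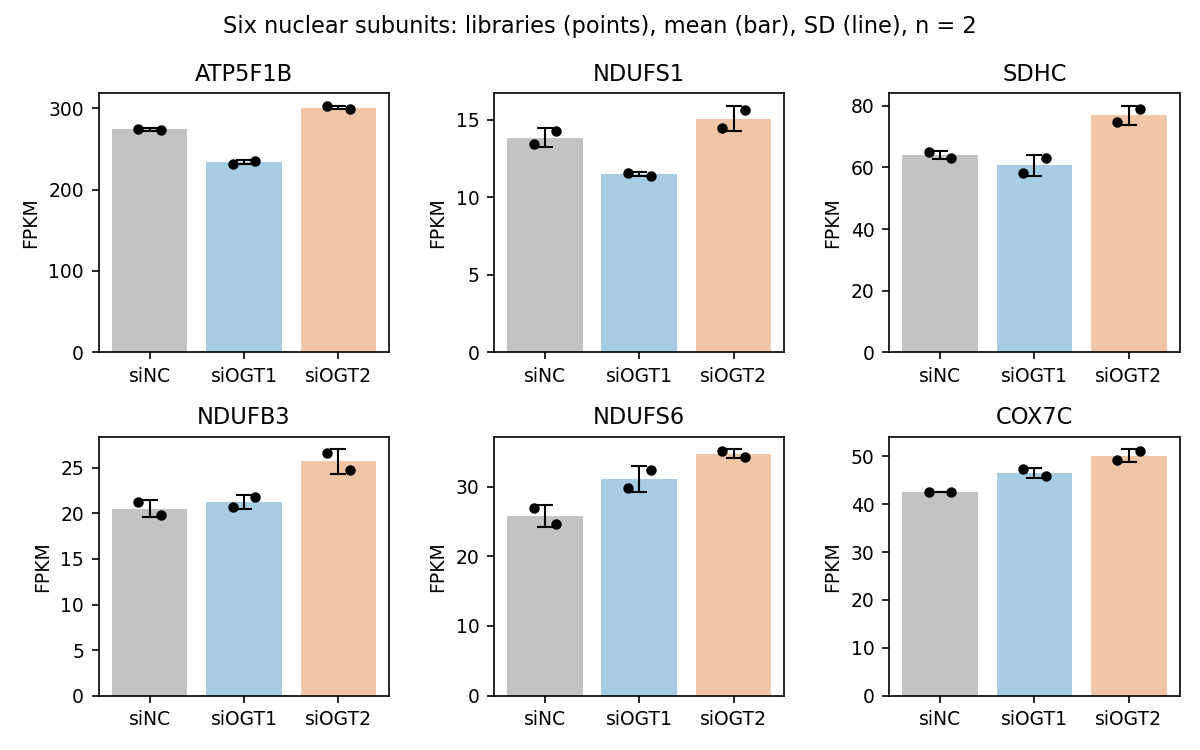
FPKM of 6 nuclear subunits, with points for the 2 libraries of a group, bars for their mean and lines for the SD, on axes that start at 0. ATP5F1B and NDUFS1 are lowest with siOGT1 (232 and 236 FPKM, and 11.6 and 11.4), SDHC and NDUFB3 stand apart with siOGT2, and NDUFS6 and COX7C are lowest with siNC.

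Genes that serve the chain from outside it were counted by lists written from textbook knowledge, and each count is to be read against the 22.1% of all tested genes called higher and 13.4% called lower with siOGT2, and the 9.51% and 8.1% with siOGT1. Among 11 complex I assembly factors without an NDUFAF symbol, 5 rose with siOGT2 and none fell, for example DMAC1, from 9.64 and 8.99 to 10.7 and 11.2 FPKM (0.22, adjusted p = 0.0111). Complex II factors rose in 1 of 4, SDHAF4 (4.45 and 3.66 to 5.67 and 6.09 FPKM, 0.45, adjusted p = 0.00178). Complex III factors rose in 3 of 8, with LYRM7, which helps in the insertion of the Rieske protein, from 3.22 and 3.39 to 4.76 and 4.62 FPKM (0.40, adjusted p = 0.00103). Complex IV factors rose in 4 of 20 and fell in 2, shares near those of all tested genes. With siOGT1 limma called 0 of 11, 0 of 4, 1 of 8 (LYRM7, 0.32, adjusted p = 0.00551) and 1 higher and 1 lower of 20. The first 2 lists had 2 and 0 higher there at an unadjusted p under 0.05, and voom called 0 in each. Of 13 citric acid cycle genes 6 rose with siOGT2 and none fell by limma, at an unadjusted p under 0.05 (0 lower) or with voom (0 lower). DLD, the dehydrogenase that reoxidises lipoamide, stood at 19.1 and 19.6 FPKM in siNC, 19.1 and 19.8 in siOGT1 and 22.7 and 22.4 in siOGT2 (0.21, adjusted p = 0.00224). Of 7 carriers of adenine nucleotides and phosphate 3 rose with siOGT2, among them SLC25A3, the phosphate carrier, from 34.95 and 33.7 to 39.1 and 40.4 FPKM (0.20, adjusted p = 0.00184).

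Of 29 genes of the machinery that copies mitochondrial DNA and makes and matures its RNA, 2 rose and 5 fell with siOGT2, and 1 rose and 1 fell with siOGT1, with medians of 0.02 in either. The share that rose with siOGT2 was below the 22.1% of all tested genes and the share that fell was near the 13.4%, while with siOGT1 both were below the 9.51% and 8.1%. PNPT1, which encodes the polynucleotide phosphorylase that degrades mitochondrial RNA and is also known as an interferon-induced gene, moved most. It stood at 97.6 and 91.6 FPKM with siNC, 62.5 and 56.8 with siOGT1 (-0.66, adjusted p = 8.64e-05), and 45.8 and 41.2 with siOGT2 (-1.11, adjusted p = 1.66e-06). FASTKD5, which helps to mature messages that no transfer RNA borders, fell with siOGT2 from 6.73 and 6.84 to 5.29 and 4.96 FPKM (-0.35, adjusted p = 0.00089). Of 9 nuclear regulators of respiratory genes 2 rose and 3 fell with siOGT2, where the share that rose was that of all tested genes (22.1%) and 13.4% of all tested genes fell. PPARGC1A, the coactivator PGC-1 alpha, went from 3.73 and 3.42 FPKM to 2.999 and 3.14 with siOGT1 (not called, adjusted p = 0.098) and 1.88 and 1.73 with siOGT2 (-0.71, adjusted p = 4.97e-05). MYC stood at 12.1 and 11.97 FPKM, then 9.43 and 9.76, then 8.64 and 8.59, and fell with siOGT1 (-0.30, adjusted p = 0.00096) and with siOGT2 (-0.44, adjusted p = 5.77e-05). Whether these genes bear on the members was not tested.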

How the data were processed

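Total RNA was measured by RNA-seq (TRIzol, NEBNext Ultra II RNA kit, per the labels' protocols). Adapters were trimmed with cutadapt 1.15 and reads aligned to GRCh38 with HISAT2, per the submitters' processing notes. The sources used here name no counting program or annotation. The authors deposited FPKM for 20036 Ensembl genes, 1 column per library. From these, 20011 identifiers matched current symbols, and positions came from GENCODE 29 (19852 matched). Whole reads were recovered from the steps of the FPKM values (tolerance 0.01 reads) for 99.99% of genes above 0, which gave the depths; the recovered length of a gene can be off by a whole factor. Genes whose mean FPKM was 1 or more were tested on log2(FPKM + 1), which understates changes of low genes, with limma 3.58.1 in R 4.3.3 (1 mean per group over all 6 libraries, intensity trend, 3 residual and 6.31 prior degrees of freedom). The same contrasts were run with voom on the recovered reads, a setting chosen after seeing the data. The other settings were the pseudocount, the filter, the scaling, the trend, the replicate block, the libraries in the fit, and each library left out; where that left 1 library in a group, it was assumed to vary like the others. Tested on data simulated for siOGT2 against siNC (10546 genes, 50 changed at each size, a dispersion of 0.000263), the fit found 10% of 1.1-fold, 22% of 1.15-fold, 72% of 1.25-fold and 94% of 1.5-fold changes, with 5 false calls. The simulation gave every gene the same dispersion and drew each gene on its own. It held no shifts shared by many genes of a library, which the real libraries show, so its false calls and shares found do not measure those of the real data.

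Members and lists were chosen with earlier results of these data known. Fold changes were given for members with the smallest p by complex, those called lower or in opposite directions, the highest and lowest levels and the paired isoforms, and from each other list for up to 2 called genes; any other gene with a fold change (MT-CO2, MT-ND1, NDUFA5, NDUFAF4 and NDUFS4) was chosen after its values were seen. Protein sequences were not used here. Some items are not reported here.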

Additional observations from a re-analysis of the deposited data

Results flagged for a closer look

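The difference between siOGT1 and siOGT2 passed limma's test (adjusted p under 0.05) for 16 members, which is what set them apart here. With siOGT1 minus siOGT2 on the log2 scale, ATP5F1B was at -0.363, NDUFS1 at -0.363, SDHC at -0.337, ATP5MC1 at -0.285, NDUFB3 at -0.261, COX7A2 at -0.204 and CYC1 at -0.129. In the mitochondrial genome MT-CO2 was at -0.240, MT-ND5 at -0.237, MT-CYB at -0.196, MT-ND6 at -0.193, MT-CO3 at -0.167, MT-ATP6 at -0.157, MT-ND4 at -0.137 and MT-CO1 at -0.123. NDUFA5, an accessory subunit of complex I, went the other way at 0.158, with 8.25 and 8.09 FPKM in siNC, 9.38 and 9.66 in siOGT1 and 8.74 and 8.13 in siOGT2, and its call ended in 9 of 17 settings (adjusted p from 0.00199 to 0.254). Of the 16, ATP5F1B, NDUFB3, NDUFS1, SDHC and MT-ND5 were called under all 17 alternative settings. Those of CYC1 and MT-CO1 held only without siOGT1 replicate 1 when a single library was left out, those of MT-CYB and MT-CO2 ended without siOGT2 replicate 2 alone, and those of MT-CO3 and MT-ND4 ended without siOGT2 replicate 1 or siOGT2 replicate 2, as did those of MT-ATP6 and MT-ND6, which also ended without siOGT1 replicate 1.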

How the results depend on the processing

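Counts over all tested genes moved too, and fell in each contrast whenever a library of the groups compared was left out. Counts of members called (higher and lower together) moved by over 1.5 times as follows. For siOGT1 against siNC, 18 nuclear calls became 5 without a low-value filter, 9 with a trimmed mean of log ratios (5 higher, 4 lower) and 7 without the intensity trend, and 1 to 19 with a library left out. The 1 mitochondrial call became 2 at a mean FPKM of at least 5 and with equal sums over nuclear genes, 0 without a filter, with the trimmed mean, without the trend and with only the 4 libraries compared, 8 with voom, and 0 to 3 with a library left out. For siOGT2 against siNC, 29 nuclear calls became 16 without a filter and 17 with the trimmed mean, and 9 to 32 with a library left out. The 11 mitochondrial calls became 5 without a filter and 6 with quantile normalization, which gives the highest genes the same value in every library, and were 8 to 11 with a library left out. For siOGT1 against siOGT2, 8 nuclear calls became 4 without the trend and 4 to 13 with a library left out, and 8 mitochondrial calls became 1 without a filter, 3 with quantile normalization, 4 without the trend and 1 to 9 with a library left out. Apart from these constructions, the cause was not tested.

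The trimmed mean also moved the split over all genes, from 1003 higher and 854 lower to 537 and 1020 with siOGT1, and from 2329 and 1411 to 1437 and 1833 with siOGT2. Voom called 2553, 4224 and 2279 of 10546 genes in the 3 contrasts. A value changed sign for COX6B1 between the siRNAs (-0.08, and -0.19 to 0.039 with a library left out, the latter without siOGT1 replicate 1) and for MT-CYB with siOGT1 (0.10, and -0.0307 with quantile normalization). Over all tested genes, same-numbered libraries did not deviate together (correlations -0.022, -0.026 and 0.049). These values cannot show whether same-numbered libraries were prepared together. With the replicate block the counts were 16 nuclear and 1 mitochondrial with siOGT1, 30 and 11 with siOGT2, and 7 and 10 between the siRNAs. The level of mitochondrial over nuclear members was the same to within the spread when untested members were added.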

Other observations

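Genes that bring proteins into mitochondria, shape the inner membrane or carry electrons between complexes were counted in the same way, where 22.1% of all tested genes were called higher and 13.4% lower with siOGT2, and 9.51% and 8.1% with siOGT1. Of 23 tested genes of the import machinery 8 rose and 1 fell with siOGT2, and 1 rose and 1 fell with siOGT1, both below the shares over all genes. The one that fell was TIMM10, a small chaperone of the space between the membranes, at 82.2 and 76.8 FPKM with siNC, 54.3 and 54.1 with siOGT1 (-0.54, limma adjusted p = 5.31e-05), and 43.3 and 40.1 with siOGT2 (-0.92, adjusted p = 1.14e-06). TOMM22, the central receptor of the outer membrane, went the other way, from 20.4 and 19.4 FPKM to 26.0 and 27.6 with siOGT1 (0.41, adjusted p = 0.000167) and 28.6 and 29.3 with siOGT2 (0.52, adjusted p = 2.24e-05). Of 9 tested genes of cristae organisation and the prohibitins 3 rose with siOGT2 and 1 with siOGT1, which was PHB1 (16.2 and 16.03 FPKM, then 17.9 and 18.6, then 19.8 and 20.2). Of 11 tested genes of the electron carriers 2 rose with siOGT2, a share below that of all genes, and COQ10B, which handles ubiquinone, fell from 44.5 and 44.7 to 38.3 and 37.0 FPKM (-0.24, adjusted p = 0.000599). Of 5 genes that assemble or regulate the ATP synthase limma called 0 with either siRNA, as did voom, with 2 higher with siOGT1 and 0 with siOGT2 at an unadjusted p under 0.05.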
